A study of Caenorhabditis elegans with 2 samples.

Results

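The 10 genes described here encode the subunits of the *Caenorhabditis elegans* AMP-activated protein kinase (AMPK) and its upstream kinase, out of 19973 annotated protein-coding genes. They were chosen by function and by name after peak signals of these data had been seen, among them the third-ranked peak of the whole set, upstream of aakg-1. For each gene, every peak summit in the gene or within 10 kb upstream of its start was listed with its signal, rank, distance and E-box. The peaks come from chromatin of whole L2 larvae, pooled males and females, immunoprecipitated through an eGFP tag in 2 biological replicates that form 1 group. The strain, OP355, carries unc-119(tm4063) and the integrated transgene wgIs355, so the tag is carried by a transgene, and whole larvae mix all tissues. The labels disagree on the tagged factor: source and antibody fields name mdl-1, a Mad-like basic helix-loop-helix factor, and the description names ZK337.2. No untreated or mutant group belongs to the series, and the control library named in the labels was not used here.

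AMPK is a heterotrimer that senses a falling energy charge. Its alpha subunit is the kinase, its beta subunit holds the complex together, and its gamma subunit binds AMP and ATP. In *C. elegans*, aak-1 and aak-2 encode alpha subunits, aakb-1 and aakb-2 beta subunits, and aakg-1 to aakg-5 gamma subunits. par-4 encodes the orthologue of mammalian LKB1, which phosphorylates the alpha subunit, and aak-2 is known for its part in lifespan and in the quiescence of starved and dauer larvae. Mad-like factors pair with Max-like partners and are known to bind the E-box CACGTG.

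Of the 14 summits found in these regions in the set selected by irreproducible discovery rate (IDR), 4 had CACGTG within 50 bp, 3 at aakg-1 and 1 at aakg-3. These stretches are shown because they are the member summits with an E-box, at IDR ranks 3, 96, 119 and 316. Each runs from 40 bp before the E-box to 40 bp after it on the strand of the gene, in ce11 coordinates read from the RefSeq WBcel235 genome, with the E-box in capitals.
aakg-1, 8286 bp upstream, chrIII:12583650-12583735, minus strand: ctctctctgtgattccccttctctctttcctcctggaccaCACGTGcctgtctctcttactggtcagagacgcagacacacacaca
aakg-1, 6954 bp inside the gene, chrIII:12568421-12568506, minus strand: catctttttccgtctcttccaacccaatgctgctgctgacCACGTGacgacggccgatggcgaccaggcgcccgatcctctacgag
aakg-1, 19076 bp inside the gene, chrIII:12556247-12556332, minus strand: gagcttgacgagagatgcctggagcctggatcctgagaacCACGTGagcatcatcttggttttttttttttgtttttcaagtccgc
aakg-3, 4806 bp upstream, chrX:2971596-2971681, plus strand: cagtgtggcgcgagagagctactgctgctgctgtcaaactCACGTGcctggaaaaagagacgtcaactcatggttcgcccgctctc

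Peaks of 3 further members are shown as the highest of their regions, and their windows reach 50 bp to either side of the summit except as stated. The aak-2 stretch is widened to take in a CACGTG that lies 60.5 bp from the summit, outside the window, and its second run of capitals is the reverse complement of CTGCGTCT. In the aakb-1 stretch the capitals mark GAGAGA and the E-box variant CATGTG, both on the reverse strand. The aakg-5 stretch is the part of the window upstream of the gene start, and on either strand it held neither CACGTG nor the variant CATGTG, the repeat GAGAGA or CTGCGTCT, the 4 motifs searched.
aak-2, 931 bp inside the gene, chrX:16796940-16797068, plus strand: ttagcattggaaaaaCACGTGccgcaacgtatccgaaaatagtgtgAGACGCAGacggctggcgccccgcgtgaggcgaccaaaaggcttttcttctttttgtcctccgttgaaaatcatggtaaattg
aakb-1, 1046 bp upstream, chrX:13754673-13754773, plus strand: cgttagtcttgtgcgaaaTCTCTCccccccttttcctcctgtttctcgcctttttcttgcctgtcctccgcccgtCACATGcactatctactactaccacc
aakg-5, 25 bp upstream, chrII:9975126-9975200, minus strand: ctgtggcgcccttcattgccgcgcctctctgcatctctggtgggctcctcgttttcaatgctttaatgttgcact

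The IDR set held 2103 peaks with signals from 32.5 to 986 and a median of 51.5, and these were the highest-signal peaks of the 28651 in the pooled list. Each replicate list held 30000 peaks, with signals up to 320 in replicate 1 and up to 665 in replicate 2. Signal is the authors' own value per peak on a scale that is not stated, so values are compared only within a list, and rank 1 is the highest signal of its list. The pooled and IDR lists contain both replicates and are no independent evidence beside them. Read depth is unknown. The summit of highest signal in every list lay in the region of mdl-1, the gene named by the source field.

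Of the 10 members, 6 had at least 1 IDR summit in the gene or within 10 kb upstream, against 20.9% of all protein-coding genes. They were the alpha subunit gene aak-2, the beta subunit gene aakb-1 and the gamma subunit genes aakg-1, aakg-2, aakg-3 and aakg-5. The members without one were aak-1, aakb-2, aakg-4 and par-4. Since the members were picked with peaks of these data known, these counts describe the genes and carry no test. A region also grows with its gene, and the median region was 14273 bp for members and 12026 bp for all genes. Per 10 kb, member regions held 0.788 IDR summits, or 0.687 without aakg-1, against 0.21 in the nuclear chromosomes. The last value covers whole chromosomes and not only genes with their upstream sequence, so these densities differ in kind.

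The highest-ranked summits were concentrated in few members. IDR summits of rank 1 to 500 lay at 3 members, aakg-1, aak-2 and aakg-3, against 5.63% of all genes. The promoter window, 1000 bp upstream to 200 bp downstream of the gene start, held an IDR summit at 1 member, aakg-5, against 5.86% of genes. Summits with CACGTG lay at 2 members, against 4.24% of genes. All 10 members had some summit in the pooled relaxed list, as did 89.8% of genes, so such a summit does not set the family apart. Summits among the 2103 highest of both replicates occurred at 6 members, against 16.2% of genes.

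**Figure D1:**
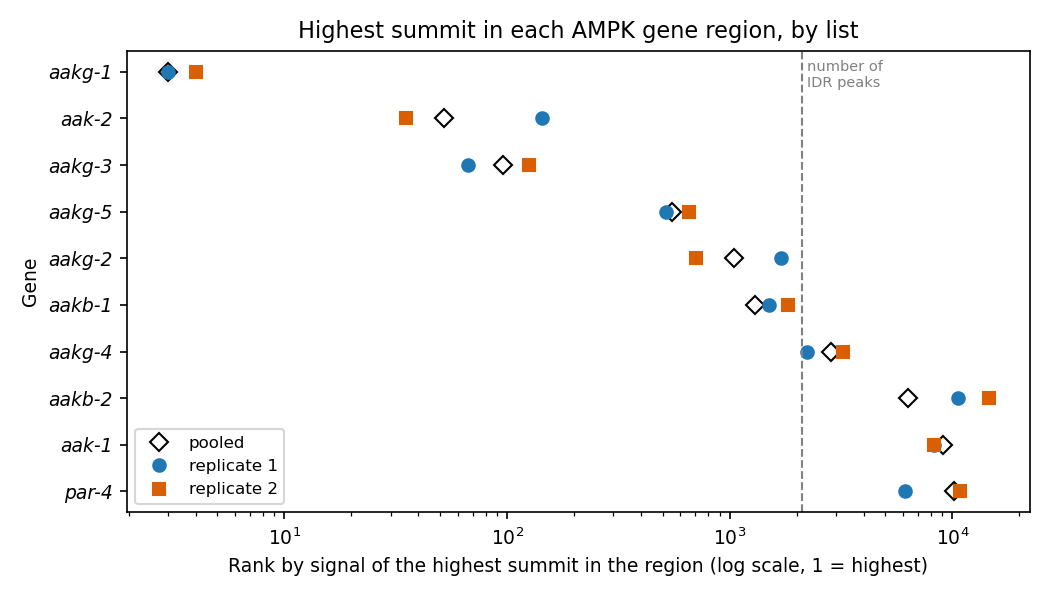
Rank (log scale) of the highest-signal summit in the gene or 10 kb upstream, for each member in the pooled list and in each replicate, with a dashed line at the size of the IDR set. The ranks ran from 3 in the pooled list for aakg-1 to 10190 for par-4, and 4 members had a pooled rank beyond the line.

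The catalytic subunits differed. aak-2 (WBGene00020142, chrX:16796087-16803398, plus strand) had 3 IDR summits, and aak-1 (WBGene00019801, chrIII:8756990-8761090, minus strand) had 0. The highest aak-2 summit lay in an intron, 931 bp downstream of the gene start, with a signal of 273 and rank 52 in the IDR set. Its signal was 64.1 (rank 143) in replicate 1 and 209 (rank 35) in replicate 2, so it ranked high in both replicates and higher in the latter. That summit was also 156 bp from the start of the non-coding RNA gene T01C8.9.

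The other aak-2 IDR peaks were near the lower end of the set. The intronic summit 3188 bp downstream of the start had a signal of 37.9 (rank 1680), with 19.3 in replicate 1 and 22.5 in replicate 2, and lay 432 bp upstream of the start of the transcript T01C8.1c.1. The summit 2392 bp upstream had a signal of 34.1 (rank 1962), and its replicate ranks were far apart, 7763 in replicate 1 and 1266 in replicate 2. It was closer to the start of got-1.2, an aspartate aminotransferase gene, at 569 bp. aak-1 had weak summits alone: its highest had a signal of 12.3 and rank 9038 in the pooled list, with best ranks of 8243 in replicate 1 and 8262 in replicate 2. The best summits of aak-1 did not lie at 1 place, since they were 8343 bp upstream in replicate 1 and 2136 bp upstream in replicate 2.

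Of the scaffold subunit genes, aakb-1 (WBGene00010115, chrX:13755769-13759391, plus strand) had 1 IDR summit, 1046 bp upstream of its start and so 46 bp outside the promoter window. Its signal was 45.5 (rank 1299), below the set's median, with 16.7 (rank 1507) in replicate 1 and 23 (rank 1823) in replicate 2. The same summit also lay in the region of cest-13, a carboxylesterase gene. aakb-2 (WBGene00012928, chrIII:11237143-11239204, plus strand) had no IDR summit, and its highest pooled summit, 122 bp upstream, had a signal of 15.1 and rank 6305. Summits at 78 bp upstream in replicate 1 (signal 5.12, rank 10647) and 179 bp upstream in replicate 2 (signal 7.17, rank 14558) lay close to it. Both lists thus held a weak summit at the aakb-2 start, well below the size of the IDR set in rank.

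The gamma subunit genes held 10 of the 14 IDR summits, 5 of them at aakg-1 (WBGene00013732, chrIII:12538664-12575401, minus strand). aakg-1 spans 36738 bp and has 7 annotated transcripts, whose starts lie 0, 35, 12323, 15172, 27320, 27944 and 30589 bp downstream of the gene start. The highest summit was intergenic, 8286 bp upstream, with a signal of 663 and rank 3 in the IDR set. It had a signal of 262 (rank 3) in replicate 1 and 405 (rank 4) in replicate 2. It therefore stood among the 4 highest summits of every list. The E-box, at 12583690, lay 5.5 bp from the pooled summit, and the window also held GAGAGA and CTGCGTCT.

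Inside aakg-1, the intronic summits were lower than the upstream one in every list. The summit 6954 bp inside the gene had a signal of 189 (rank 119), with 77.2 (rank 102) in replicate 1 and 109 (rank 141) in replicate 2. The summit 19076 bp inside had a signal of 110 (rank 316), with 26.8 (rank 681) in replicate 1 and 85.6 (rank 219) in replicate 2. Both had an E-box, 16.5 and 35.5 bp from the summit. The remaining summits, 17088 and 25628 bp inside the gene, had signals of 67.6 and 62.3 and no CACGTG within 50 bp. Their replicate ranks ran opposite ways: the former ranked 384 in replicate 1 and 1093 in replicate 2, and the latter 1793 and 611. The latter was 33 bp from the start of the non-coding RNA gene Y111B2A.33 and 1692 bp upstream of the transcript Y111B2A.8a.1.

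**Figure D2:**
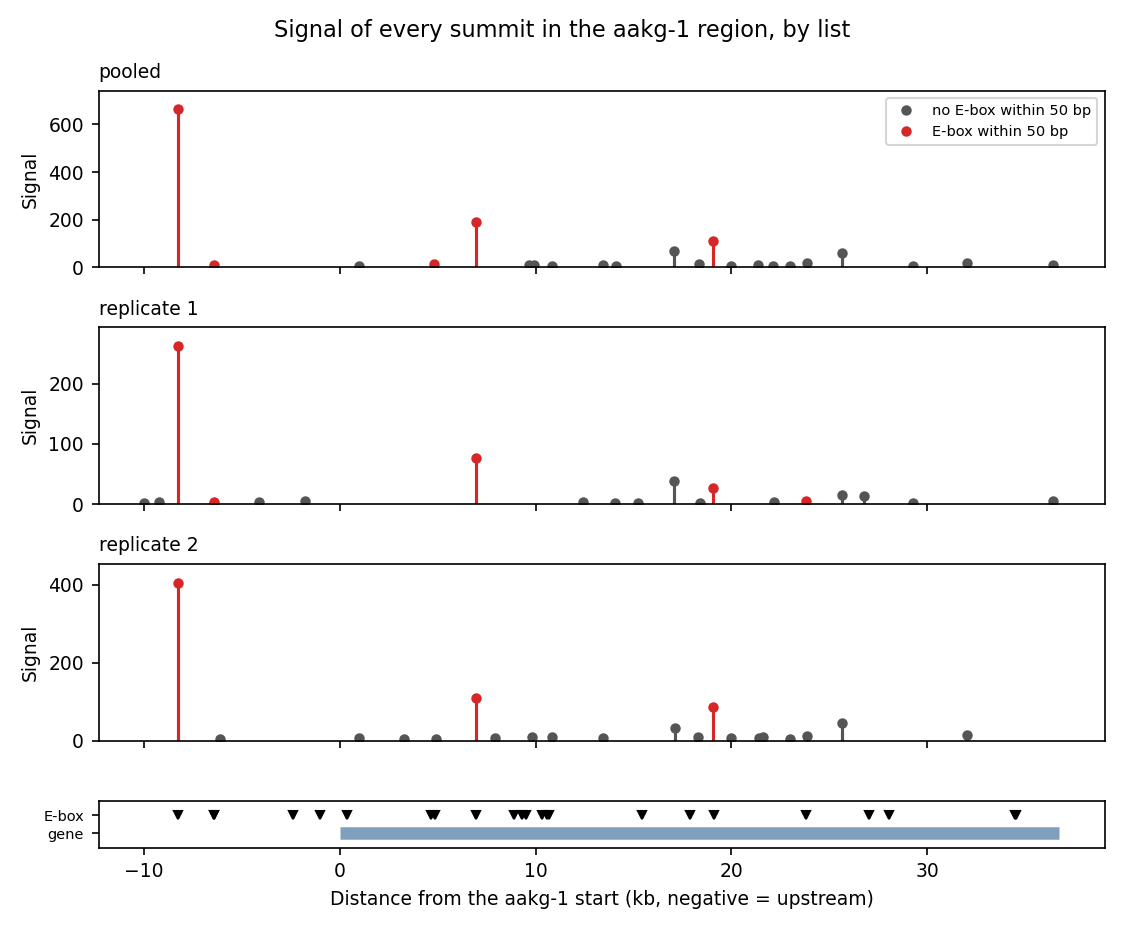
Signal of every summit in the aakg-1 region in the pooled list and each replicate, against distance from the gene start in kb, coloured by whether CACGTG (E-box) lay within 50 bp, with the gene and the E-box sites of the region in the lowest panel. The tallest summit, at 663 in the pooled list, stands 8286 bp upstream, and the other 4 IDR summits lie inside the gene.

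The aakg-1 region is long, and the part of its length in the count was not tested. Of the 54 genes with a region of 40 to 60 kb, 35.2% had an IDR summit, and 1 (aakg-1) had 5 or more. The median among these genes was 0 IDR summits. Over all genes, 39 (0.195%) had 5 or more. The aakg-1 region also held more CACGTG sites per 10 kb, 4.92, than the other 9 member regions, 2.06, or the nuclear chromosomes, 1.77.

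aakg-3 (WBGene00021527, chrX:2976448-2981027, plus strand) had 1 IDR summit, intergenic and 4806 bp upstream, with a signal of 208 and rank 96. Its signal was 92.2 (rank 67) in replicate 1 and 116 (rank 126) in replicate 2, so it was the second-highest member summit in replicate 1 and the third in replicate 2. The centre of its E-box was 3.5 bp from the summit, the closest of the 4. The summit lay closer to the start of the microRNA gene mir-34, 1794 bp upstream of it, than to that of aakg-3.

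aakg-5 (WBGene00011276, chrII:9971035-9975125, minus strand) had the family's promoter summit, 25 bp upstream of its start. It had a signal of 77.9 (rank 553), with 31.8 (rank 518) in replicate 1 and 44.9 (rank 657) in replicate 2. It was in the 2103 highest peaks of both replicates. This summit lay in no other gene's promoter window, though it was in the regions of dtmk-1, R53.4, R53.5 and R53.8. The second aakg-5 summit was 9874 bp upstream, just inside the 10 kb limit, with a signal of 62.8 (rank 773), and it lay closer to the start of sdz-38, at 3139 bp.

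aakg-2 (WBGene00020633, chrX:16866046-16869031, minus strand) had 2 IDR summits, both nearer to the start of T20F7.1 than to its own. The summit 2498 bp upstream had a signal of 51.8 (rank 1041), with 8.75 (rank 4094) in replicate 1 and 42.5 (rank 707) in replicate 2. The summit 3641 bp upstream had a signal of 34.1 (rank 1960), with 15.3 (rank 1702) in replicate 1 and 23.6 (rank 1764) in replicate 2. The former was thus outside the 2103 highest peaks of replicate 1, and the latter inside those of both replicates. A CACGTG lay 49.5 bp from the former summit, with part of it beyond 50 bp, and was not counted, although it was within 50 bp of the summit called in replicate 2.

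aakg-4 (WBGene00020135, chrX:2314894-2319338, minus strand) had no IDR summit but stood closest to the limit of the set among the 4 members without one. Its highest pooled summit, 486 bp upstream, had a signal of 26 and rank 2852. Next came a summit 2999 bp inside the gene at 23.6 (rank 3254) and one 2581 bp upstream at 21.4 (rank 3696), which had an E-box 28.5 bp away. In replicate 1 the summit at that E-box was its highest (signal 12.8, rank 2229), and in replicate 2 the highest (signal 15.7, rank 3217) was 495 bp upstream. For comparison, the lowest signal in the IDR set was 32.5, and the lowest among the members' IDR summits was 34.1. The nearest member summits beyond the set were 3822 bp upstream of aakg-3, at 29.4 (rank 2394), and 9834 bp upstream of aak-2, at 26.5 (rank 2783).

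The upstream kinase gene par-4 (WBGene00003919, chrV:18098687-18106405, plus strand) had the lowest-ranked best summit of the 10 in the pooled list, whereas aakb-2 was the lowest in each replicate. Its signal was 11.6 (rank 10190), 6205 bp upstream, beside 6.95 (rank 6111) in replicate 1 and 8.27 (rank 10866) in replicate 2. The replicate 1 summit lay 6172 bp upstream and the replicate 2 summit 410 bp inside the gene, so the replicates did not share a best place at par-4. Its region held 0 CACGTG sites.

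**Figure D3:**
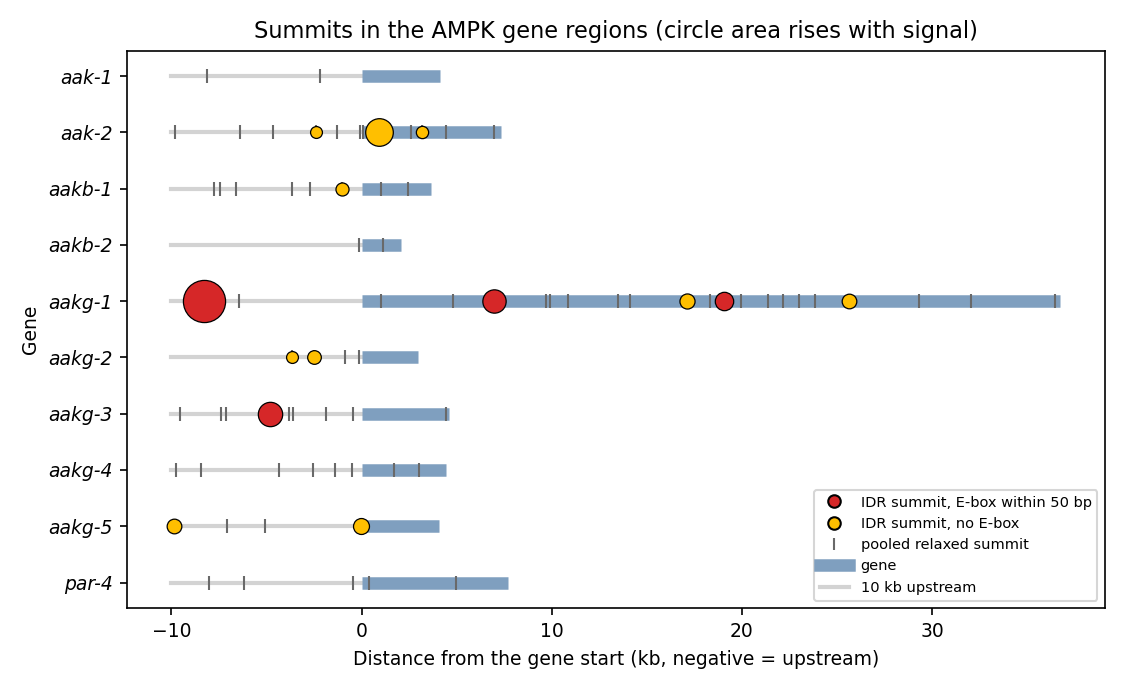
Position of every pooled and IDR summit around each member, as distance from the gene start in kb, with IDR summits as circles whose area rises with signal, coloured by whether an E-box lay within 50 bp. IDR summits lie upstream or in introns, and 1 of 14, at aakg-5, lies in a promoter window.

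Across the family, 8 of the 14 IDR summits lay upstream of their gene in intergenic sequence and 6 in introns. Of the 14, 8 also lay in the region of another protein-coding gene and 6 in no other. Distance alone does not assign a peak to a gene, and which gene a peak acts on was not tested. Just outside the 10 kb limit, pooled summits lay 10001 bp (signal 10.7) and 10820 bp (signal 30.7) upstream of aakb-1, 10083 bp (signal 6.63) upstream of aakg-1 and 10100 bp (signal 6.51) upstream of aakb-2, none of them in the IDR set. aak-2 and aakg-2 lie 62.6 kb apart on X, and aakg-4 and aakg-3 lie 657 kb apart. On X, 4 of 5 members had an IDR summit against 28.3% of 2731 genes there, and on the autosomes 2 of 5 against 19.7%.

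The IDR set held the highest-signal peaks of the pooled list, which contains both replicates, so presence in both is largely set by that choice. Of the 2103 IDR peaks, 2092 overlapped some peak in both relaxed replicate lists. A single IDR peak could still rank low in 1 replicate, as the aak-2 peak 2392 bp upstream did (rank 7763 in replicate 1). All 14 member IDR peaks overlapped 1 of the 2103 highest peaks of replicate 2, and 12 did so in replicate 1. The exceptions were the aak-2 peak 2392 bp upstream and the aakg-2 peak 2498 bp upstream. When only the nearest overlapping peak of each replicate was taken, the share with both was 85.7%, beside 67% of all IDR peaks. Member IDR summits also had a higher median signal, 65.2 against 51.5, and its part in this share was not tested. Summits called in a replicate lay a median of 4.5 bp and at most 60 bp from the pooled summit, and at the E-box peaks at most 12 bp. The order of neighbours changed between replicates for 3 pairs: aak-2 and aakg-3, aakb-1 and aakg-2, and aak-1 and par-4. These pairs are thus not ordered beyond the replicate spread, whereas aakg-1 was first of the 10 in both replicates.

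**Figure D4:**
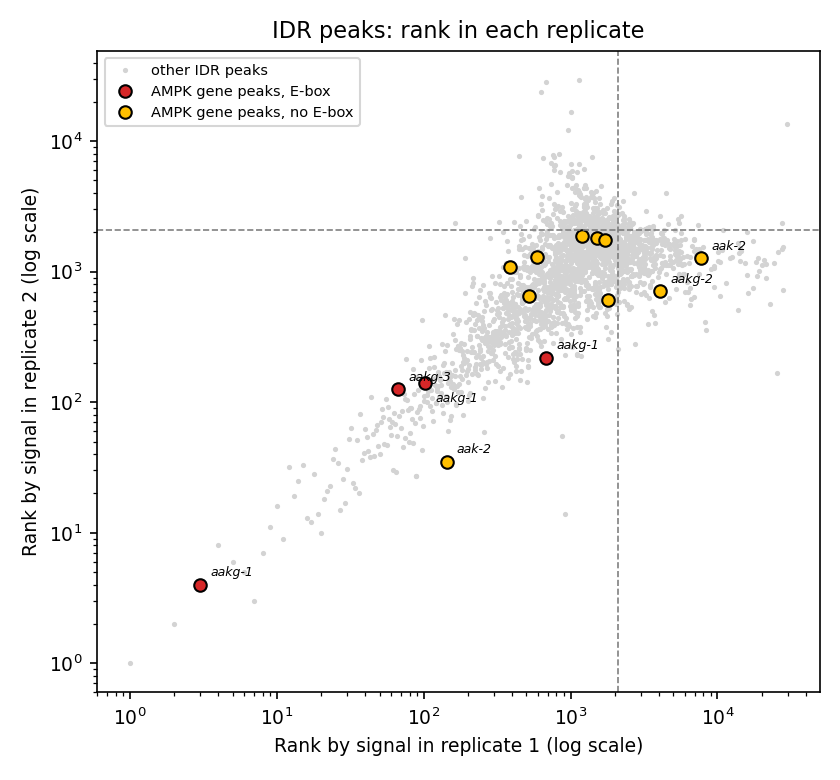
Rank by signal in replicate 1 against rank in replicate 2 (both log scales) for the IDR peaks found in both replicates, with the 14 member peaks coloured by E-box and dashed lines at the size of the IDR set. The aakg-1 upstream peak sits at ranks 3 and 4, and peaks of aak-2 and aakg-2 lie right of the vertical line.

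E-boxes were more frequent at the members' higher peaks. CACGTG lay within 50 bp of 4 of 14 member IDR summits (28.6%), against 17.2% of all IDR summits. Of these 4 summits, 3 are at aakg-1, so the summits are not independent and the shares carry no test. Among summits of rank 1 to 500 the count was 4 of 5, against 25.4%. The exception was the aak-2 peak, whose E-box was 60.5 bp away. Within 100 bp the members' count was 6 of 14, against 22.6%. Of the other motifs, GAGAGA lay in 8 of the 14 windows (57.1%, against 32.2% of IDR windows), CATGTG in 3 (21.4%, against 11%) and CTGCGTCT in 3 (21.4%, against 12.2%). The median G or C content of the member windows was 50.5%, against 47.5% over all IDR windows, and its part in the motif counts was not tested. A match is a description of letters and not a bound site.

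Most E-boxes of these regions had no summit within 50 bp. Such a site can still lie inside a called peak, as the aak-2 site 60.5 bp from its IDR summit does. The 10 regions held 50 CACGTG sites, of which 4 lay within 50 bp of an IDR summit (8%, against 2.13% of 17729 sites in the nuclear chromosomes). Near a pooled summit there were 8 (16%, against 6.7%), and 36 were near no summit of any list. aakg-1 held 23 of the sites, with 3 near an IDR summit and 6 near a pooled one. aakb-2 held 6 sites, none near a pooled summit, so the letters were present there without a pooled summit close by. aakg-3 held a single CACGTG in its region, the one under its peak. Of the 50 sites, 13 lay in coding exons.

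The genes whose best ranks were most like those of aakg-1 were sought by the sum, over the IDR list and both replicates, of the absolute difference in log10 rank. The closest was mtm-3, a myotubularin phosphatase gene, at 0.618, with a summit of signal 647 1039 bp upstream, at rank 4 in the IDR set, 7 in replicate 1 and 3 in replicate 2. Next, at 0.62, came dpy-28, a condensin subunit gene of dosage compensation, and hpl-2, which encodes a heterochromatin protein 1 homologue. They share 1 summit of signal 615, 3875 and 3726 bp upstream of their starts. None of these summits had CACGTG within 50 bp, unlike that of aakg-1.

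Genes around AMPK were read from a list of 29 that are known partners, related kinases, substrates or effectors. The list was chosen with earlier results of these data known, so its counts describe the genes and carry no test. Of these, 19 (65.5%) had an IDR summit in the gene or 10 kb upstream, beside the 20.9% of all genes. Their regions were long, with a median of 19991 bp, and among the 936 genes with regions of 20 to 40 kb the share was 34%. By group, the count was 2 of 5 for LKB1 partners and the other upstream kinase, 3 of 4 for AMPK-related kinases, 11 of 13 for substrates and effectors, and 3 of 7 for TOR and lysosomal partners. Among the genes whose mammalian counterparts form a complex with LKB1, the scaffold gene mop-25.1 had an IDR summit (signal 53.6, rank 995), and its paralogues mop-25.2 and mop-25.3 and the pseudokinase gene strd-1 had none.

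The highest pathway peaks were those of atgl-1, a triglyceride lipase gene, with a signal of 204 (rank 103) 1810 bp upstream, and hlh-30, the TFEB orthologue, with 197 (rank 109) 8877 bp inside the gene. Both had an E-box within 50 bp. Then followed unc-51, the ULK1 orthologue that starts autophagy, at 131 (rank 226), and crtc-1, a CREB coactivator, at 108 (rank 328). The glycogen synthase gene gsy-1 had 96.9 (rank 388) and flcn-1, the folliculin orthologue, had 85.7 (rank 486). In the IDR set all 6 were below the highest peaks of aakg-1, aak-2 and aakg-3 in signal. The replicates did not keep this order. In replicate 1, atgl-1 (rank 121) and hlh-30 (rank 127) stood above aak-2 (rank 143). In replicate 2 they stood above aakg-3, at ranks 98 and 109 against 126.

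In the promoter window, 9 of the 29 pathway genes (31%) had an IDR summit, beside 5.86% of all genes, again with no test. They were gsy-1 (signal 96.9), the salt-inducible kinase gene kin-29 (79.8), the nuclear receptor gene nhr-49 (78.5), the FOXO factor gene daf-16 (67.7), the CREB gene crh-1 (56.3), hlh-30 (42.7), atgl-1 (37.8), the Rictor gene rict-1 (35.2) and the Rheb gene rheb-1 (34). Of the AMPK genes themselves only aakg-5, at 77.9, had such a summit, close to nhr-49 in signal.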

How the data were processed

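Deposited ce11 peak lists were analysed: relaxed lists of peaks and background for each of 2 biological replicates, a pooled relaxed list and the optimal IDR set, per the labels. The deposited signal of each peak is the authors' own value, its scaling not stated, and was used to rank peaks within a list. The deposited −log10 q-value was not used for ranking. For aligner, peak caller, IDR threshold and depth, no value was given in the labels or headers. The ce10 lists were not used here.

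Summits were assigned to genes of Ensembl release 115 (ce11, 1-based) in the gene or 10 kb upstream. Sequences were read from the RefSeq WBcel235 genome, and both strands were searched for motifs within 50 bp of a summit. Each replicate's 2103 highest peaks served as its top list, with overlap of at least 1 bp. The assignment code was checked on simulated summits planted inside gene regions, where 200 of 200 were found over 19973 genes. This checks the code alone and not which gene a summit acts on. The replicates form 1 group, so no test between groups was made. The members, the pathway list and the alternatives were chosen with earlier results of these data known. Named genes are the members, mdl-1, pathway genes with the 6 highest summits or a promoter summit, genes sharing or nearest to a member's summit, and the 3 genes most like aakg-1. strd-1, the mop-25 genes, mir-34 and the non-coding genes were named after their values were seen. Alternatives covered peak number, region and promoter size, transcript starts, nearest-start assignment, E-box window, overlap rule, the mdl-1 locus and each replicate alone. Tables were handled with pandas 2.3.3 and numpy 2.4.6 under Python 3.11.15, and plots made with matplotlib 3.10.9.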

Additional observations from a re-analysis of the deposited data

How the results depend on the processing

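With the 500 highest IDR peaks, 3 members and 6 pathway genes had a summit, beside 5.63% of all genes. The member regions then held 5 summits, 0 members had one in the promoter window, and 80% of the 5 summits had CACGTG. With the 1000 highest the regions held 9 summits, with 2 kb upstream 8, and with the 5000 highest pooled peaks 23. In that last setting 7 members had a summit, with aakg-4 added, beside 39.6% of all genes, and 3 members had one in the promoter window, beside 12.2%. A promoter window reaching 2000 bp upstream gave 2 members, beside 7.97% of all genes, and the starts of any transcript also gave 2, beside 6.55%. Leaving out each replicate in turn gave 6 members and 17 to 18 pathway genes, beside 20.7 to 20.8% of all genes. It also gave 13 to 14 summits, 1 promoter member, 30.8 to 35.7% with CACGTG and a highest rank of 3 to 4. Giving each summit only to the gene with the nearest protein-coding start left 5 members, without aakg-2, with 10 summits, and 14 pathway genes. Under that rule, with no limit on the region, 8.41% of all genes had a summit. Without peaks within 20 kb of mdl-1 the highest rank was 1, since the peaks ranked above that of aakg-1 lay there and were left out. No paired analysis was possible because there is 1 group. Of 53 alternative values, 40 stayed within their range of the value reported. That range was a fixed fold difference for counts and the spread between replicates for the rank. For the share with CACGTG it was the exact 95% interval, 8.39 to 58.1%. This interval is wide and treats the summits as independent, which they are not, so the tally says little about that share. Unknown depth limits what an absent peak can show, and the lists do not give signal at sites without a peak.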

Other observations

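Between 10 and 20 kb upstream, beyond the limit used for the members, the IDR set held a summit for aak-1 at 19643 bp (signal 96.9, rank 389), for aakb-1 at 16250 bp (signal 99.4, rank 373) and for par-4 at 19285 bp (signal 43.3, rank 1375). None had CACGTG within 50 bp. The aak-1 summit lay 721 bp from the start of K02D10.4, the par-4 summit 2555 bp from that of nova-1 and the aakb-1 summit 7796 bp from that of nhr-71. With a limit of 20 kb, 8 of the 10 members had an IDR summit, beside 32.3% of all protein-coding genes.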
